A study of Mus musculus with 2 samples.

Results

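Interferon-stimulated genes are the genes that cells switch on when interferons bind their receptors, and 52 mouse genes of this kind were named as members by symbol. Of these, 51 were among the 31053 genes of the deposited count matrices under the same symbol, and Mx2 was not found under its symbol. They were split into 43 genes called type I-like here and 8 GTPases known mainly as targets of interferon gamma (Gbp2, Gbp3, Gbp4, Gbp5, Gbp7, Irgm1, Igtp and Iigp1). Ifi47 was counted as type I-like although it too is an immunity-related GTPase by sequence. All 51 had at least 1 UMI (unique molecular identifier, a counted transcript molecule) in the cells kept.

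Spleen cells came from naive Il7r-cre; Rosa26-lsl-tdTomato mice of 7 to 9 weeks, and both groups carry these alleles. In such mice a cell whose own history or ancestry includes Il7r expression, which is typical of lymphoid progenitors, keeps the red protein tdTomato. CD11c-bearing cells were enriched and sorted into tdTomato-positive conventional dendritic cells (L-cDC) and tdTomato-negative ones (M-cDC), and each group gave 1 library of single cells. There was therefore no replicate for either group, no p-value is given, and every interval below covers counting error only. The label depends on how fully Cre marked the cells, which was not measured here, and the number of mice behind each library is not given in the sources used here.

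Type I interferons act through the receptor chains Ifnar1 and Ifnar2, and the kinases Jak1 and Tyk2 then activate a complex with Stat2 and Irf9 that binds the interferon-stimulated response element. Interferon gamma acts through Ifngr1 and Ifngr2, and its signal reaches promoters that hold the gamma-activated site. Dendritic cells both make and sense interferons, and a low level of many of these genes is known in cells that have met no infection.

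There were 4939 barcodes and 40170515 UMIs for L-cDC, and 6674 barcodes and 52973960 UMIs for M-cDC. After filters 3963 and 5607 cells were kept, with medians of 8581 and 7667 UMIs per cell. Only 6 barcodes occurred in both libraries. Cells were clustered without the members and the pathway genes, and clusters were named by fixed marker lists. This gave cDC1-like cells (215 in L-cDC and 756 in M-cDC), cDC2-like cells (187 and 1108) and mature dendritic cells marked by the Ccr7 program (1239 and 2013). Type 1 conventional dendritic cells (cDC1) are known for cross-presentation to CD8 T cells, type 2 cells (cDC2) for presentation to CD4 T cells, and mature cells for migration. All 14 cDC1 markers, at least 14 of 15 cDC2 markers and all 17 mature markers reached 10 CPM (the summed UMIs of a class scaled to a total of 1000000) in their own class in both libraries. The L-cDC library also held 202 NK-like and 53 B cell-like cells, against 1 and 0 in M-cDC, so its label as conventional dendritic cells does not cover all its cells. They entered none of the comparisons. Of the 2 cDC2-like clusters, the one led by Mmp12, Clec4a3 and Mgl2 scored higher for the monocyte list (mean standardised level 2.35) than for the cDC2 list (1.44), so the name is less sure there.

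The promoters of the members were searched for interferon motifs. Members were chosen as interferon-stimulated genes, so a high share of such motifs is not independent of that choice. RefSeq promoters on GRCm38.p6, from 250 bases before to 50 after the start, were matched for 37 of 51 members (44 promoters), while Ifi27l2a, Ifi204, Dhx58, Mx1, Oas2, Usp18, Rtp4, Parp14, Parp9, Zbp1, Gbp4, Iigp1, Ly6a and Ly6e had no entry. The core of the interferon-stimulated response element, GAAANNGAAA on either strand, was found in 26 of 44 member promoters (59.1%), against 3.43% of all 32817 promoters. The longer GAAANNGAAAC, which contains the core, was found in 47.7% against 0.814%. The gamma-activated site TTCNNNGAA was found in 20.5% against 8.29%. Of the GTPase promoters, 6 of 7 held the response element core and 3 held the gamma-activated site. A match describes letters and is not evidence of binding. The windows below are shown for 9 genes that differed between mature and cDC2-like cells, in either direction, and for Ifit1. Capitals mark the core on either strand, and each window is read 5′ to 3′ along the gene's strand.
Gbp2, chr3:142620589-142620628, plus strand: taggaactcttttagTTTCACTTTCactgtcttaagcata
Gbp5, chr3:142496754-142496793, plus strand: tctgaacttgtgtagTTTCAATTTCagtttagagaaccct
Isg15, chr4:156200860-156200911, minus strand: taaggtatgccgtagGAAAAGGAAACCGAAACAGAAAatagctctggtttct
Bst2, chr8:71537572-71537617, minus strand: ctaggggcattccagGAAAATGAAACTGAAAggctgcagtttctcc
Phf11b, chr14:59341356-59341395, minus strand: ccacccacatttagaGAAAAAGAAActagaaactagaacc
Irgm1, chr11:48871420-48871465, minus strand: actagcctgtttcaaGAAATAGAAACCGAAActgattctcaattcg
Stat2, chr10:128270261-128270300, plus strand: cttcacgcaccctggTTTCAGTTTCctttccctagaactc
Trim30a, chr7:104465205-104465244, minus strand: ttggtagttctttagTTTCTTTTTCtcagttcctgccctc
Ifi203, chr1:173942503-173942542, minus strand: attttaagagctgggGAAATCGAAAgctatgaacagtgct
Ifit1, chr19:34640770-34640828, plus strand: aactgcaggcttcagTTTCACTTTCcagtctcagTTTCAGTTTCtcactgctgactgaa

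The first 5 of these genes had higher levels in mature than in cDC2-like cells, the next 4 had lower levels, and Ifit1 was found in few cells. Among members higher in mature than in cDC2-like cells, 6 of 7 genes with a promoter entry held the core. Among members lower there, 8 of 12 did. The core was thus present in genes of both directions. Isg15 held 3 overlapping matches between 78 and 57 bases before its RefSeq start, and Gbp2 held 1 match from 59 to 50 bases before its own. The Gbp2 gene as placed by GENCODE begins further upstream, at 142620602, so by that start the match lies just inside the gene.

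**Figure D1:**
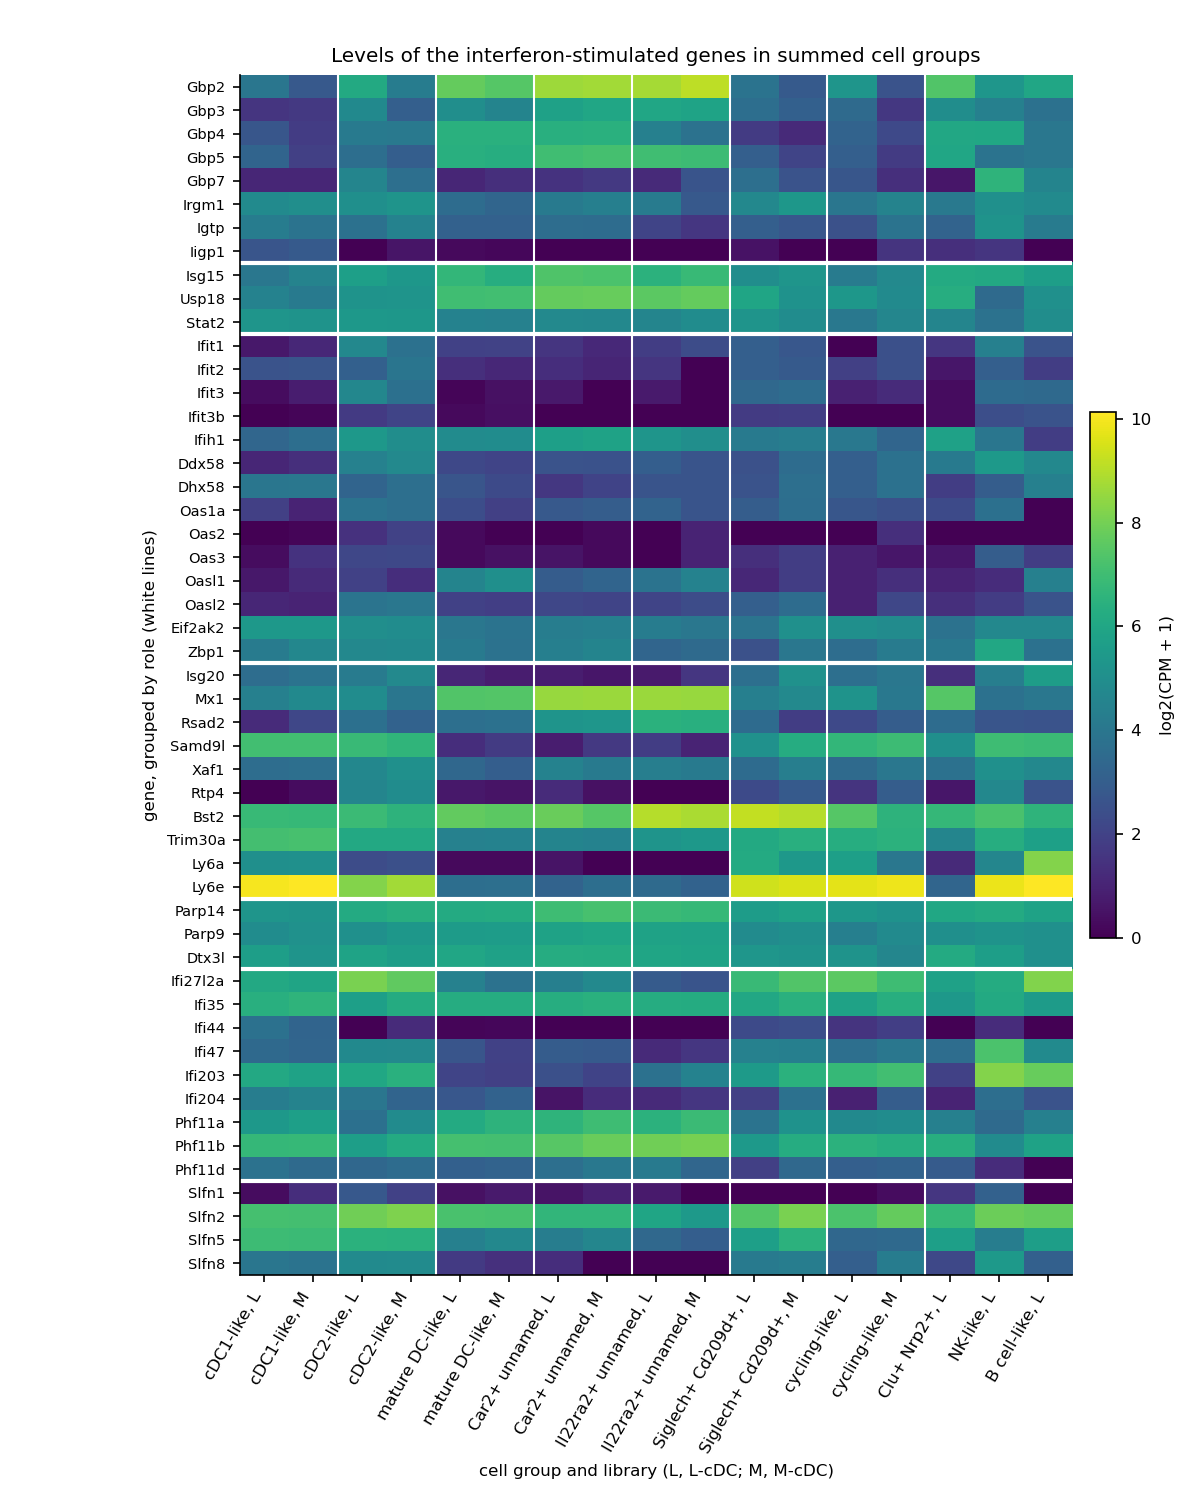
Levels of the 51 members as log2(CPM + 1), with genes in rows by role (white lines part the roles, from the GTPases at the top to the Schlafen genes at the bottom) and summed cell groups of each library in columns (L, L-cDC; M, M-cDC). Ly6e and Samd9l are bright in both cDC1-like and cDC2-like columns and dark in mature cells, while Gbp2, Mx1 and Usp18 show the opposite order.

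Between mature and cDC2-like cells the members differed in both directions, and more were lower than higher in mature cells. A member counted as higher or lower between classes only if it differed at least 1.5-fold in the same direction in both libraries, among genes with at least 20 CPM in the higher class and 50 UMIs over both classes in each library. Of 31 members with enough counts, 10 were higher in mature cells (18.7% of all 5300 such genes were) and 15 were lower (33.3% of all genes). Of the GTPases 3 of 5 were higher and 1 lower, with median log2 ratios of 1.58 in L-cDC and 2.40 in M-cDC. Of the type I-like genes 7 of 26 were higher and 14 lower, with medians of -0.68 and -0.95, beside medians of -0.27 and -0.31 over all genes. Fewer cells of a subtype and less RNA per cell cannot be told apart in such sums.

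The guanylate-binding proteins, large GTPases that attack membranes around intracellular microbes, gave 3 of the higher members. Gbp2 (chromosome 3, 142620602 to 142638008) had 212 CPM in mature cells of L-cDC and 174 in M-cDC, 71.0 and 17.9 in cDC2-like cells, and 14.8 and 6.12 in cDC1-like cells. Its level was thus highest in mature cells of both libraries, 2.98-fold above cDC2-like cells in L-cDC (2.48 to 3.61, 95% interval) and 9.76-fold in M-cDC (8.25 to 11.6). The gap between these folds comes from the cDC2-like level, which differed between libraries.

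Gbp5 had 82.3 and 77.3 CPM in mature cells of L-cDC and M-cDC, against 11.6 and 7.07 in cDC2-like cells and 8.66 and 2.78 in cDC1-like cells. Gbp4 had 85.3 and 84.7 CPM in mature cells, 16.9 and 16.005 in cDC2-like cells, and 5.58 and 2.503 in cDC1-like cells. Both were at least 5.05-fold higher in mature than in cDC2-like cells of either library. For Gbp4, 19.4% of the 50-base stretches in its last 500 transcript bases also occur in other genes, mainly guanylate-binding proteins, so part of its reads may have been lost or shared. Gbp3 was past 1.5-fold over cDC1-like cells in both libraries, but over cDC2-like cells only in M-cDC (22.6 against 7.44 CPM; 31.2 against 27.4 in L-cDC).

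The other GTPases did not follow. Gbp7 had 1.12 and 1.61 CPM in mature cells, 23.3 and 12.2 in cDC2-like cells and 94.0 in the NK-like cells of L-cDC. Irgm1, an immunity-related GTPase that directs autophagy of microbes, was lower in mature cells (10.8 and 8.89 CPM) than in cDC2-like cells (32.01 and 37.3 CPM), 2.96-fold in L-cDC and 4.20-fold in M-cDC. Igtp had 17.9 and 13.6 CPM in cDC1-like cells, 12.8 and 21.3 in cDC2-like cells and 7.93 and 7.73 in mature cells. It was thus lowest in mature cells of both libraries, but its levels in L-cDC were too low to be counted. Iigp1 did not exceed 6.21 CPM in the 3 classes of both libraries.

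Among type I-like genes, Mx1, a dynamin-like GTPase that blocks influenza virus, had 165 CPM in mature cells of L-cDC and 168 in M-cDC. Its level was 29.1 and 14.8 CPM in cDC2-like cells and 20.4 and 26.6 in cDC1-like cells, so that mature cells were 5.68-fold (4.29 to 7.68) and 11.4-fold (9.49 to 13.8) above cDC2-like cells. Usp18, the protease that removes Isg15 from proteins and dampens the type I receptor, had 128 and 134 CPM in mature cells and 35.5 and 36.5 in cDC2-like cells, 3.59-fold (2.78 to 4.72) and 3.67-fold (3.25 to 4.16) higher. Isg15, the ubiquitin-like modifier itself, had 103 and 77.6 CPM in mature cells, 51.2 and 39.8 in cDC2-like cells and 15.4 and 22.2 in cDC1-like cells. Its excess over cDC2-like cells was lost when members were allowed to shape the clusters (log2 ratios of -0.09 and -0.15).

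Oasl1, an oligoadenylate synthase-like protein known to hold back Irf7 translation, had 23.0 and 31.7 CPM in mature cells. It had 2.91 and 1.49 CPM in cDC2-like cells and 0.558 and 1.30 in cDC1-like cells, where L-cDC had only 2 UMIs. The neighbouring plant homeodomain genes Phf11a and Phf11b on chromosome 14 were also higher in mature than in cDC2-like cells, by 5.92-fold and 2.82-fold in L-cDC and by 3.24-fold and 1.90-fold in M-cDC. Of their end stretches 32.8% and 42.6% are shared within the Phf11 family, so the 2 genes cannot be fully told apart. Bst2, or tetherin, which holds budding virus at the cell surface, was 1.72-fold and 2.04-fold higher, but it was lower in mature cells of L-cDC when each library was clustered alone (log2 ratio -0.88).

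The members lower in mature cells included some of the most abundant ones. Ly6e (chromosome 15, 74955051 to 74959905), a lipid-anchored surface protein that blocks entry of coronaviruses, had 1022 CPM in cDC1-like cells of L-cDC and 1103 in M-cDC. Its level was 304 and 419 CPM in cDC2-like cells and 11.8 and 11.98 in mature cells. Mature cells thus had 25.8-fold (21.2 to 31.6) and 35.002-fold (30.2 to 40.8) less Ly6e than cDC2-like cells. Samd9l (chromosome 6, 3372257 to 3399572), a restriction factor that slows protein synthesis, had a level of 132 and 133 CPM in the cDC1-like class, and of 116 and 98.1 in the cDC2-like class. In mature cells it had 1.49 and 2.38 CPM, 78.0-fold (46.8 to 139) and 41.2-fold (29.6 to 58.9) lower than in cDC2-like cells.

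Ifi203, of the family of DNA-binding proteins with pyrin and HIN domains, had 65.2 and 85.6 CPM in cDC2-like cells and 3.17 and 2.77 in mature cells, 20.5-fold (13.9 to 31.1) and 30.9-fold (22.7 to 43.1) lower. Ifi27l2a, a small mitochondrial protein, had 268 and 200 CPM in cDC2-like cells and 21.1 and 12.9 in mature cells. All 3 Schlafen genes with enough counts were lower in mature cells. Slfn8 had 27.9 and 28.5 CPM in cDC2-like cells against 2.33 and 1.67 in mature cells, Slfn5 had 86.7 and 84.5 against 20.2 and 25.2, and Slfn2 had 246 and 283 against 148 and 145. For Slfn8, 25.5% of end stretches are shared with Slfn9 and a pseudogene.

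The RNA sensor Ddx58 (RIG-I) had 21.0 and 26.3 CPM in cDC2-like cells and 3.55 and 3.22 in mature cells. The sensor Ifih1 (MDA5) did not pass 1.5-fold in both libraries (41.3 and 30.5 against 28.6 and 29.0 CPM). Eif2ak2 (the kinase PKR), Stat2, Trim30a, Xaf1, Zbp1 and Ifi47 were also lower, by 1.55-fold to 9.24-fold. Zbp1 was higher in mature cells of L-cDC when the comparison used only the cDC2-like cluster led by Clec4a4 (log2 ratio 0.27). The poly-ADP-ribosyl transferases Parp9 and Parp14 and their partner Dtx3l differed by less than 1.5-fold in both libraries.

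**Figure D2:**
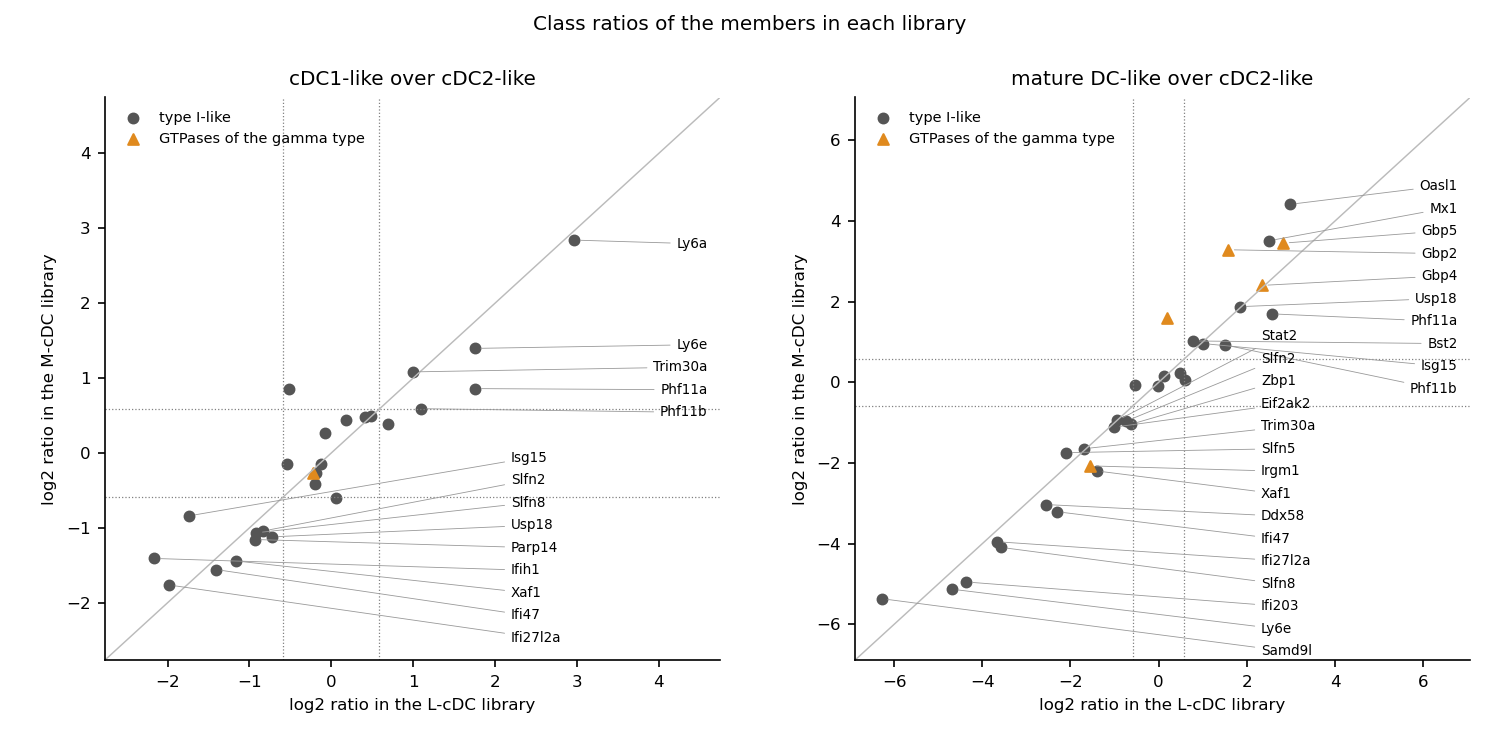
Log2 ratios of the members with enough counts, in L-cDC (x axis) against M-cDC (y axis), for cDC1-like over cDC2-like cells (left) and mature over cDC2-like cells (right); triangles are GTPases of the gamma type, circles the other members, dotted lines 1.5-fold and the grey line equal ratios. Named genes passed 1.5-fold in the same direction in both libraries, 14 on the left and 25 on the right, where they run from Samd9l at -6.28 and -5.36 to Oasl1 at 2.99 and 4.41.

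Set against cDC1-like cells, mature cells again had both higher and lower members. Of 27 members with enough counts 12 were higher (24.2% of all genes) and 10 were lower (32.1% of all genes). Both comparisons use the same mature cells and are not independent. Gbp2 was 14.3-fold (10.9 to 19.2) and 28.5-fold (22.3 to 37.0) above its cDC1-like level, and Mx1 was 8.11-fold (6.41 to 10.4) and 6.33-fold (5.60 to 7.18) above it. Ly6e was 86.9-fold (72.8 to 105) and 92.1-fold (79.7 to 107) below it. Ly6a, the Sca-1 surface protein, had 31.8 and 32.9 CPM in cDC1-like cells, and 2 and 3 UMIs were all it had in mature cells of L-cDC and M-cDC. Trim30a, a ubiquitin ligase that restrains Toll-like receptor signals, had 135 and 143 CPM in cDC1-like cells against 20.8 and 21.6 in mature cells.

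Between the cDC1-like and cDC2-like classes, the members differed in smaller steps. Of 26 with enough counts, 5 were higher in cDC1-like cells (8.41% of all genes) and 9 were lower (16.8% of all genes), and the median log2 ratio was -0.20 in L-cDC and -0.21 in M-cDC beside -0.10 in both over all genes. Ly6a was 7.81-fold (3.67 to 19.9) higher in L-cDC and 7.17-fold (5.10 to 10.3) in M-cDC. This rested on 7 UMIs in cDC2-like cells of L-cDC, was reversed there when each library was clustered alone (log2 ratio -0.44), and 8.13% of its end stretches are shared with other Ly6 genes. Ly6e was 3.36-fold (3.07 to 3.69) and 2.63-fold (2.53 to 2.73) higher, and Trim30a, Phf11a and Phf11b were 1.51-fold to 3.38-fold higher.

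The 9 members that were lower in cDC1-like cells included Ifi27l2a, with 67.6 and 59.0 CPM against 268 and 200 in cDC2-like cells, 3.96-fold (3.38 to 4.65) and 3.39-fold (3.09 to 3.73). Ifih1 had 9.21 and 11.5 CPM against 41.3 and 30.5, a gap of 4.48-fold (2.93 to 7.00), the widest of the 9 in L-cDC, and 2.66-fold (2.13 to 3.32). Ifi47, an immunity-related GTPase by sequence, was 2.66-fold and 2.94-fold lower, and Xaf1, which antagonises an apoptosis inhibitor, 2.24-fold and 2.72-fold. Isg15, Usp18, Parp14, Slfn2 and Slfn8 made up the rest, at 1.65-fold to 3.33-fold. With every cell thinned to 3000 UMIs, 12 members had enough counts, and 5 of the 14 calls were kept.

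Within the mature class the members did not move together. Clusters are called here by a leading gene. The Pla2g7+ cluster (395 cells in L-cDC, 512 in M-cDC) and the Itgb8+ cluster (473 and 987) were compared after their levels had been seen. Of 23 members with enough counts, 11 were higher in Pla2g7+ cells (12.9% of all 4529 genes) and 3 were lower (19.5% of all genes). Gbp2 had 463 and 487 CPM in Pla2g7+ cells of L-cDC and M-cDC and 75.1 and 76.5 in Itgb8+ cells, a ratio of 6.17 (5.51 to 6.92) and 6.37 (5.82 to 6.96). Gbp3 had 78.5 and 72.5 CPM against 6.47 and 8.18, and both genes stood among the 10 leading genes of the Pla2g7+ cluster, although neither had been used to form it.

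Ifi27l2a had 50.7 and 34.98 CPM in Pla2g7+ cells against 3.92 and 4.98 in Itgb8+ cells. Phf11b had 239 and 272 against 82.6 and 89.9, and Isg15 had 155 and 96.1 against 53.7 and 48.2. Irgm1, Phf11a, Zbp1, Ifih1, Gbp5 and Parp14 were higher by 1.51-fold to 4.07-fold. The opposite order held for Oasl1, with 4.45 and 5.40 CPM against 36.7 and 44.01, for Gbp4, with 38.8 and 37.8 against 125 and 112, and for Slfn5. Thus Gbp2 and Gbp4, which were both high in the mature class as a whole, had their higher levels in opposite clusters of this pair.

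The remaining mature clusters fell between or beside these. The Il12b+ cluster (95 and 88 cells) had the highest Isg15 of any cluster with the mature markers, at 283 CPM in L-cDC and 482 in M-cDC. The Scin+ cluster (276 and 426 cells) had the lowest Mx1, at 43.0 and 44.9 CPM. Of the unnamed clusters, 4 had all 17 mature markers at 10 CPM, over both libraries together. Those led by Car2 (776 and 787 cells) and Il22ra2 (156 and 112) had 403 to 556 CPM of Gbp2 and 377 to 389 of Mx1. Rsad2, or viperin, which makes a chain-terminating nucleotide, had 87.8 and 82.8 CPM in Il22ra2+ cells against 11.9 and 12.8 in the named mature class. The cluster led by Ppp1r1a (105 and 65 cells) had 332 and 290 CPM of Gbp2 and 76.6 and 69.5 of Mx1. In the remaining one, of shallow cells (179 and 86, with a median of 1875 UMIs), Gbp4 had 167 and 173 CPM and Mx1 had 451 and 519. The Clu+ Nrp2+ cluster, found in L-cDC alone (359 cells), had 164 CPM of Gbp2, 173 of Mx1 and 1.03 of Oasl1.

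**Figure D3:**
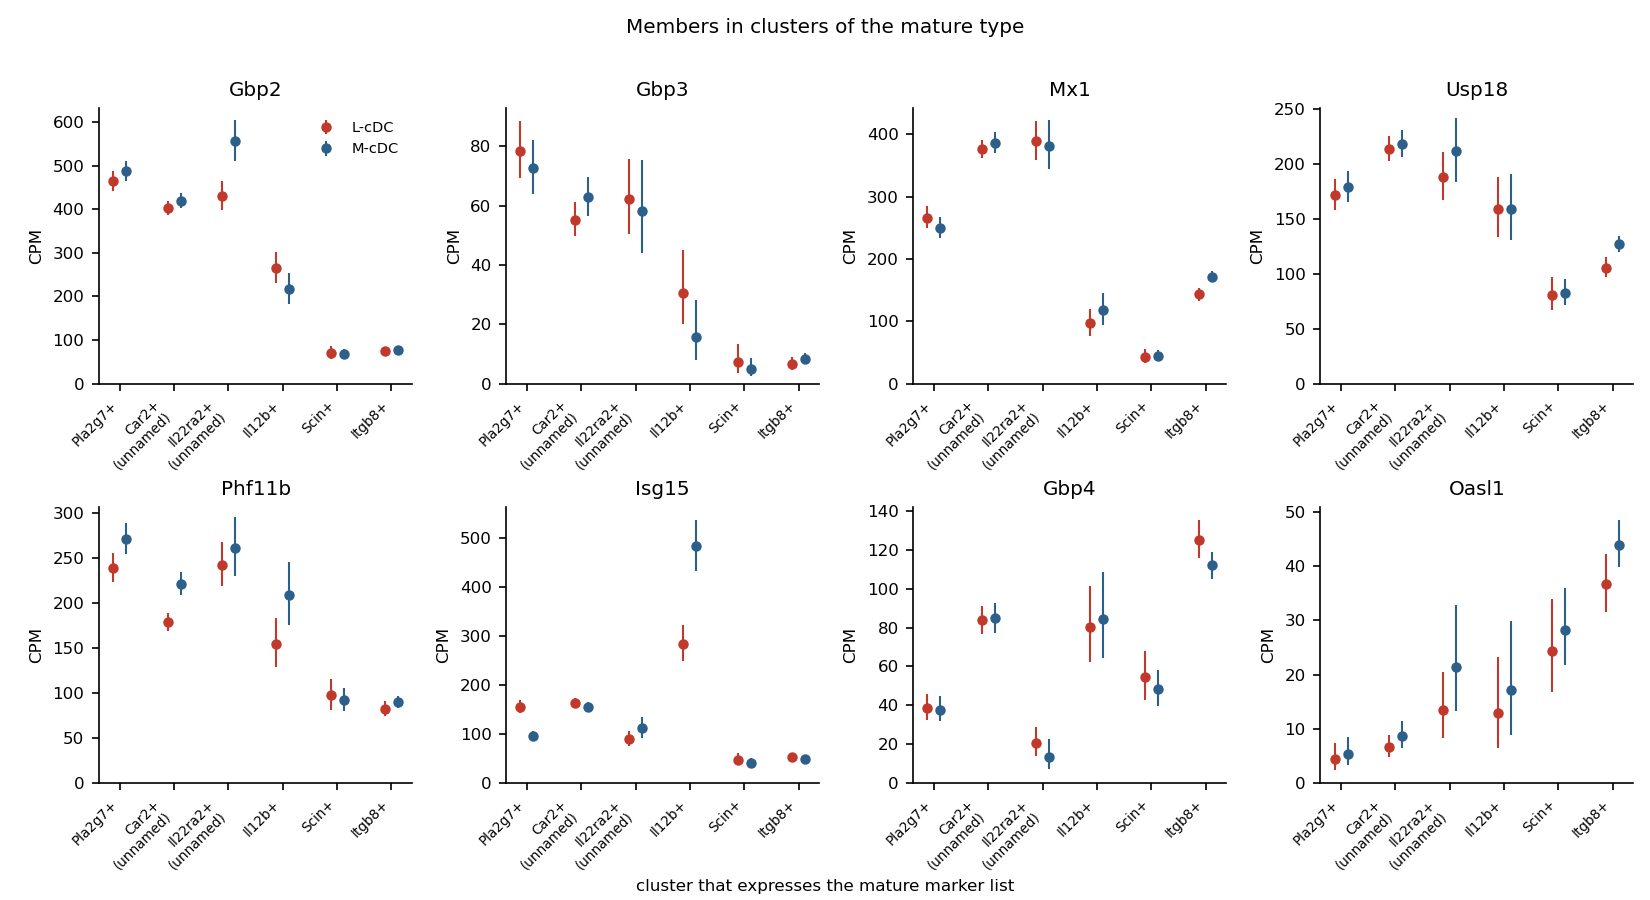
CPM of 8 members (y axes, each from 0) in 6 of the clusters that express the mature marker list (x axis), with L-cDC in red, M-cDC in blue and bars for exact Poisson 95% intervals of counting error. Gbp2, Gbp3 and Phf11b are high in Pla2g7+, Car2+ and Il22ra2+ cells, among these 6 Oasl1 and Gbp4 are highest in Itgb8+ cells, and Isg15 is highest in Il12b+ cells.

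Outside these classes, the Siglech+ Cd209d+ cells (195 and 146), whose best-scoring list was that of plasmacytoid markers, had 587 and 507 CPM of Bst2, which is also known as a plasmacytoid surface antigen. Their Ly6e was 667 and 745 CPM, and their Gbp2 only 13.7 and 6.38 CPM. High Bst2 was not particular to them, with 511 and 452 CPM in Il22ra2+ cells and 246 and 458 in macrophage-like cells. Cycling cells (62 and 237) had 847 and 940 CPM of Ly6e. The NK-like cells of L-cDC had 302 CPM of Ifi203, 153 of Ifi47 and 919 of Ly6e, all above the mature class.

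The series set out to compare L-cDC with M-cDC within types. In cDC1-like cells, none of the 23 members with enough counts reached 1.5-fold (1.11% of all 4774 genes did), and their log2 ratios of L-cDC over M-cDC lay between -0.53 (Isg15) and 0.43 (Dtx3l). In mature cells 1 of 21 did (0.491% of all 4280 genes), namely Ifi27l2a with 21.1 CPM in L-cDC against 12.9 in M-cDC, 1.63-fold (1.34 to 1.98). Under 8 alternative settings no member was counted in mature cells. The call of Ifi27l2a was also lost with each library clustered alone, after thinning to 3000 UMIs, and with unnamed clusters of highest mature score added. In these settings other members were counted instead. With a single library a side, such small ratios do not show that the members are equal, and a difference below 1.5-fold was not sought.

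In cDC2-like cells 9 of 34 members passed 1.5-fold, 6 higher and 3 lower in L-cDC (8.62% of all 5370 genes passed either way). Gbp2 had 71.0 CPM in L-cDC against 17.9 in M-cDC, 3.97-fold (3.10 to 5.09), and Gbp3 had 27.4 against 7.44, 3.67-fold (2.45 to 5.47). Ifit3 had 25.0 against 12.3 CPM, Ifit1 had 25.6 against 12.9, Mx1 had 29.1 against 14.8 and Gbp7 had 23.3 against 12.2, each 1.91-fold to 2.04-fold higher. With cells classed by marker means, the log2 ratios of Ifit1 and Ifit3 reversed to -0.29 and -1.54. A single cell of L-cDC held 51.2% of the Ifit3 UMIs, 1 cell held 40.9% of the Ifit1 UMIs, and 1 cell held 23.0% of the Gbp2 UMIs. Phf11a was 2.30-fold lower in L-cDC (1.47 to 3.80), Igtp 1.67-fold (1.07 to 2.73) and the exonuclease Isg20 1.51-fold (1.03 to 2.30).

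Of the 9 members, 6 had the same direction in both cDC2-like clusters, and the 3 guanylate-binding proteins did not. In the Mgl2+ cluster (94 cells in L-cDC, 473 in M-cDC) Gbp2 had 116 and 81 UMIs, a log2 ratio of 2.43, and Gbp3 and Gbp7 had ratios of 2.01 and 1.30. In the Clec4a4+ cluster (93 and 635 cells) the same 3 genes had log2 ratios of -0.76, -1.46 and -0.80, on 6, 1 and 4 UMIs of L-cDC, too few to count. With no more than 5% mitochondrial UMIs per cell the 3 ratios were -0.30, -0.21 and -0.63. Mx1 was higher in L-cDC in both clusters, by 0.997 and 0.81 on the log2 scale. Ifit1 (0.66 and 1.43) and Ifit3 (0.80 and 1.24) had positive log2 ratios in both, on 10 and 13 UMIs of L-cDC in the Clec4a4+ cluster. Phf11a (-1.81 and -0.48), Isg20 (-0.75 and -0.37) and Igtp (-0.91 and -0.47) had negative ones. Members that passed in a single cluster only included Ifi27l2a (-0.08 in Mgl2+ and 1.04 in Clec4a4+ cells), Ly6e (-0.91 and 0.06) and Rtp4 (-1.09 and 0.47). Between the clusters themselves 1 of 20 members, Slfn5, was higher in Mgl2+ cells of both libraries (3.97% of all 3880 genes were) and 0 were lower (5.8% of all genes). Slfn5 had 113 and 108 CPM in Mgl2+ cells and 44.04 and 61.9 in Clec4a4+ cells.

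Marker lists of other cell types also gave different sums in the cDC2-like class of each library. The 9 monocyte markers, all detected in both, summed to 2789 CPM in L-cDC and 1656 in M-cDC. The 17 mature markers summed to 1356 and 1004 CPM, and 10 of 11 plasmacytoid markers detected in each summed to 366 and 199, with Klk1 at 0 in L-cDC and Ly6d at 0 in M-cDC. Not every sum was higher in L-cDC. The 10 NK markers, of which 7 and 3 were detected, summed to 175 CPM in L-cDC and 279 in M-cDC. Only 1 of them reached 10 CPM in each library, and Nkg7, Gzma, Gzmb and Prf1 were at 0 in M-cDC but not in L-cDC. The 10 B cell markers, of which 9 and 5 were detected and 2 reached 10 CPM in each, summed to 158 and 171 CPM. The 10 macrophage markers, with 1 at 10 CPM in each, summed to 97.2 and 98.6. The part of these lists in the member ratios was not tested.

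**Figure D4:**
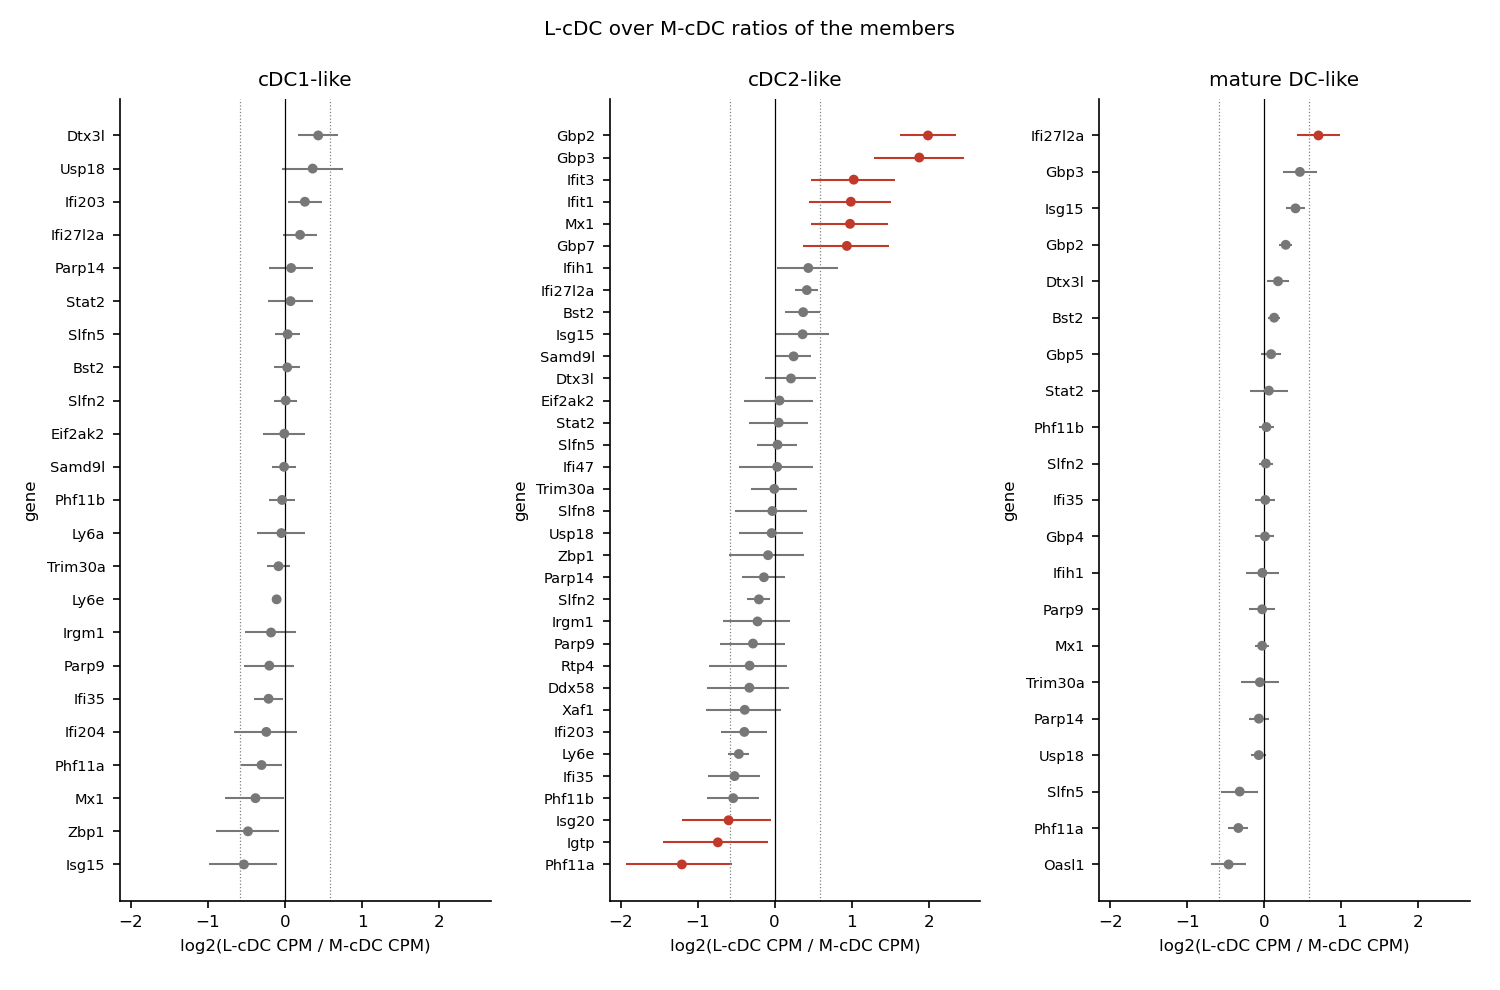
Log2 ratios of L-cDC over M-cDC (x axis) for the members with enough counts in each of 3 classes (y axis, sorted within a class), with bars for exact conditional 95% intervals of counting error, dotted lines at 1.5-fold and red for members past it. The cDC1-like panel has no red point, the mature panel 1 (Ifi27l2a) and the cDC2-like panel 9, from Phf11a at -1.20 to Gbp2 at 1.99.

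The Ifit genes, which bind foreign RNA lacking a self cap and lie side by side on chromosome 19, came from few cells. With each cell thinned to 3000 UMIs, Ifit1 was detected in 21 of 1049 cDC2-like cells of M-cDC, and Ifit3 was detected in 61.9% of those 21 against 2.33% of the rest. In L-cDC it was 40.0% of 5 cells against 3.64% of the rest of 170. In mature cells of the same libraries, Ifit3 was detected in 0 of 1157 cells of L-cDC, which allows a share of up to 0.259% with a UMI at this depth, and in 1 of 1946 of M-cDC. In cDC1-like cells the Ifit3 share was 0.465% and 0.268%. The low level outside cDC2-like cells did not hold alike for the other Ifit genes. Ifit1 was detected in 13 mature cells of L-cDC and 18 of M-cDC, with Ifit3 in 0 and 1 of these. In cDC1-like cells Ifit1 was detected in 0 of 215 and 2 of 747. Ifit2 was detected in 2 and 19 cDC1-like cells, 5 and 42 cDC2-like cells, and 2 and 8 mature cells. These numbers and shares count cells with a UMI, not cells that express the gene. Of the 50-base end stretches of Ifit3, 14.9% are shared with Ifit3b.

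When members and pathway genes were allowed to shape the clusters, a small cluster of 39 cells in L-cDC and 66 in M-cDC appeared, with Retnla, Fcrls, Mmp12, Ifit3 and Cxcl10 among its leading genes. Of these cells 35 and 56 were cDC2-like in the main clustering. They held 84.6% (11 of 13) and 39.1% (45 of 115) of the Ifit2 UMIs of all cDC2-like cells. Of the Ifit3 UMIs they held 65.1% (28 of 43) and 39.4% (39 of 99). They also held 88.5% of the Gbp2 UMIs of cDC2-like cells in L-cDC (108 of 122), but 16.7% in M-cDC (24 of 144). The cluster was formed with these genes, so its levels are a description. Even in it, only 9 of 39 and 19 of 66 cells had an Ifit3 UMI.

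The pathway around the members was read from lists of receptors, signalling genes, sensors and ligands. Apart from Ifng, interferon transcripts were all but absent from the kept cells. Of 18 interferon genes listed, 14 had no UMI, Ifnb1 had 1, Ifnz 1 and Ifnk 5. Ifng had 201 UMIs, all in L-cDC, and 195 of them were in its NK-like cells.

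Of the receptor chains, Ifngr1 differed most between classes, with 395 and 448 CPM in cDC1-like cells, 296 and 377 in cDC2-like cells and 31.4 and 34.1 in mature cells. Its partner Ifngr2 had 93.8 and 94.8, 109 and 131, and 74.9 and 83.1 CPM in the same order. The type I receptor chain Ifnar1 had 48.9 and 56.8 CPM in cDC1-like cells, 54.7 and 64.4 in cDC2-like cells and 37.7 and 45.2 in mature cells. Ifnar2 had 67.6 and 68.3, then 84.4 and 82.5, then 44.2 and 48.6 CPM. Of 5 receptor genes with enough counts, 2 (Ifngr1 and Ifnar2) were lower in mature than in cDC2-like cells in both libraries (33.3% of all genes) and 0 were higher (18.7%), a count near that of all genes.

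Among 13 signalling genes with enough counts, 4 were higher in mature than in cDC2-like cells (18.7% of all genes) and 2 were lower (33.3%). Irf1, a target and mediator of interferon gamma, had 372 and 394 CPM in mature cells against 66.4 and 81.8 in cDC2-like cells. The kinases Jak2 (360 and 360 against 210 and 203 CPM) and Tyk2 (110 and 111 against 39.6 and 30.8 CPM) and the inhibitor Socs1 were also higher. Irf9, the DNA-binding subunit of the type I complex, had 79.9 and 68.3 CPM in cDC1-like cells, 62.3 and 60.4 in cDC2-like cells and 25.3 and 28.8 in mature cells. Irf7, the amplifier of type I interferon genes, had 58.9 and 51.1, then 16.3 and 21.6, then 3.36 and 4.12 CPM.

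Of 8 other GTPases of the gamma type, 2 had enough counts, and both were higher in mature than in cDC2-like cells (18.7% of all genes). One of them, Gbp9, shares end stretches with Gbp4, so the 2 genes may not be fully separate. Gbp8 had 78.6 and 79.7 CPM in mature cells, 41.3 and 43.7 in cDC2-like cells and 8.10 and 5.10 in cDC1-like cells, and Gbp9 had 52.4 and 63.9, 27.4 and 26.4, and 17.3 and 15.4 CPM. Of 10 further gamma-type targets, 8 had enough counts against cDC2-like cells, 6 of them higher in mature cells (18.7% of all genes) and 2 lower (33.3%). Psmb9, an immunoproteasome subunit, had 1035 and 1129 CPM in mature cells against 304 and 407. The 2 lower genes were Ciita, the master regulator of MHC class II (67.5 and 55.0 against 414 and 441 CPM), and the chemokine Cxcl9 (11.2 and 6.37 against 134 and 38.3 CPM). Cxcl9 was highest in cDC1-like cells, at 478 and 440 CPM. In cDC2-like cells of L-cDC, 222 of 231 Cxcl9 UMIs came from the 35 cells that joined the small cluster with Ifit3 and Cxcl10. In M-cDC it was 107 of 309 UMIs, from 56 cells. Between libraries, no receptor and no signalling gene reached 1.5-fold in any of the 3 classes. Of 8 further gamma-type targets with enough counts in cDC2-like cells, 1 was higher and 1 lower in L-cDC (8.62% of all genes passed either way). Their log2 ratios ran from -0.90 to 1.81.

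**Figure D5:**
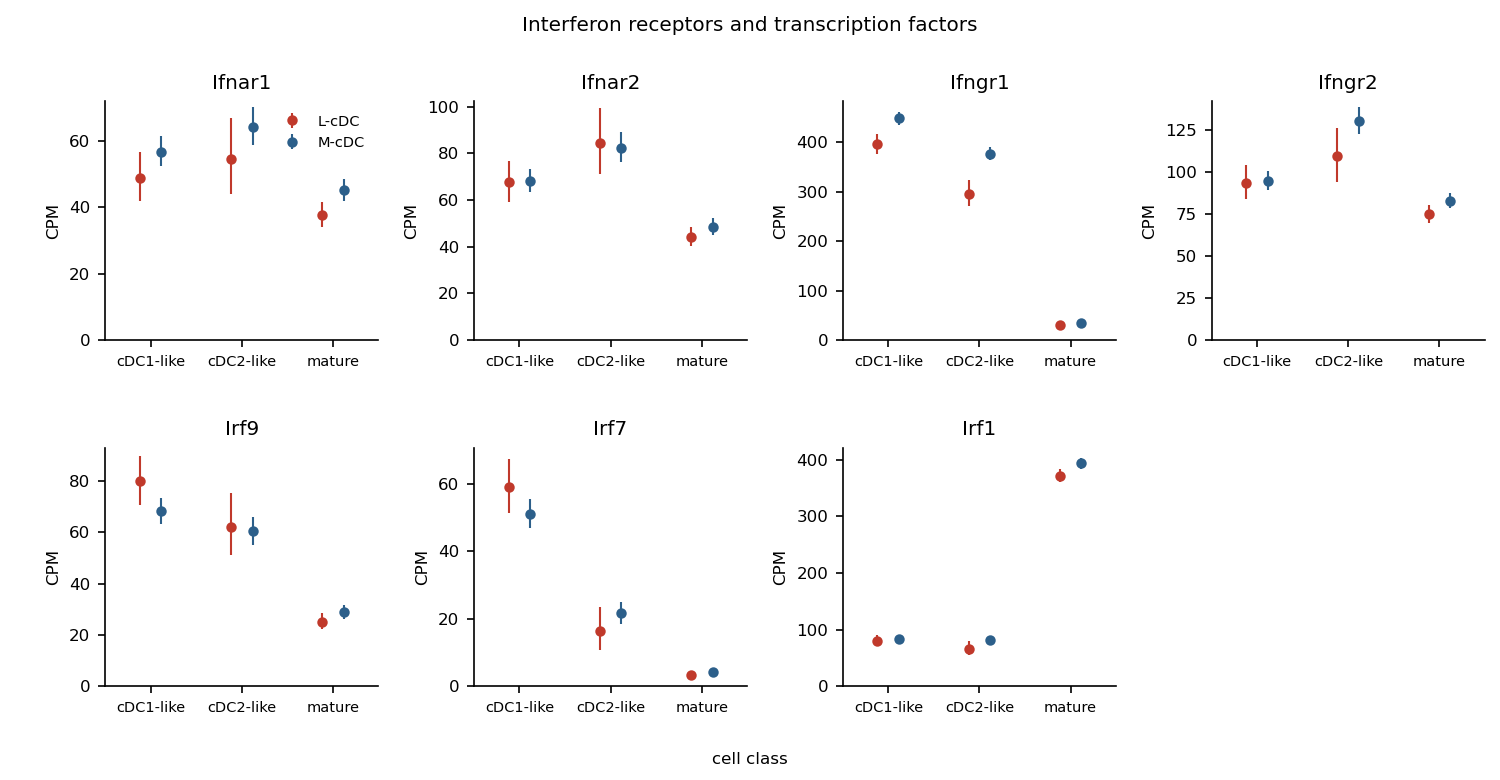
CPM (y axes, each from 0) of 4 receptor chains and 3 transcription factors in 3 classes (x axis), with L-cDC in red, M-cDC in blue and bars for exact Poisson 95% intervals of counting error. Ifngr1, Irf9 and Irf7 are lowest and Irf1 highest in mature cells of both libraries.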

How the data were processed

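Single spleen cells sorted as L-cDC and M-cDC were measured with the 10x Genomics 3′ kit v3.1, and 1 library per group was analysed. Both deposited tables contain unnormalised UMI counts for every gene and barcode. Cell Ranger 6.1.2 wrote them, per the file headers, and GRCm38 is the build in the submitters' processing notes. Barcodes with under 500 genes or over 10% mitochondrial UMIs were removed, leaving 4086 and 5848. Scrublet, at an expected rate of 0.08, set thresholds of 0.632 and 0.277, and cells above 0.277 were removed from either library (123 and 241). Kept cells were scaled to 10000 UMIs, log-transformed and clustered on 2000 variable genes without the members and pathway genes (30 components, 15 neighbours, Leiden resolution 1.0, seed 1; scanpy 1.11.5 with igraph 0.11.9 and scikit-learn 1.9.0 under Python 3.11.15; intervals from scipy 1.17.1). A cluster took the name of the marker list with most markers among its top 10 genes, or else of the highest score if it led by 0.3, given a score of 0.3 and 3 markers at 10 CPM. Clusters over 95% from 1 library stood apart. The rule took this form only once an earlier version had been run on these clusters, and the comparisons of clusters within a class were added after their levels had been seen.

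UMIs were summed per class and library and scaled to CPM with exact Poisson 95% intervals, and ratios were given exact conditional binomial 95% intervals. UMIs gather in single cells, so these intervals are too narrow, and PCR and capture are not covered. Genes needed 20 CPM in the higher sum and 50 UMIs, and a class at 0 was set to 3 counts. No test between groups was made. Named genes were the called members of largest log2 ratio (up to 8 per comparison with full values), up to 4 genes per pathway list, and the receptor chains, Irf7 and Irf9; a gene with over 30% of a library's UMIs in 1 cell was marked. Others are given by level, and 1 pathway gene is not reported here. Members and lists were chosen with earlier results of these data known. Positions follow GENCODE on GRCm38. The ratio calculation was tested on simulated data.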

Additional observations from a re-analysis of the deposited data

How the results depend on the processing

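The order of the classes was steadier than the difference between libraries. Of the 25 members called between mature and cDC2-like cells, 16 to 25 kept their call under each alternative, of the 22 between mature and cDC1-like cells 15 to 22, of the 14 between cDC1-like and cDC2-like cells 5 to 14, and of the 9 between libraries in cDC2-like cells 1 to 9. Causes were not tested. Leaving mitochondrial, ribosomal protein and immunoglobulin genes out of the totals moved the median of all genes in M-cDC from -0.31 to -0.50 for mature over cDC2-like cells and from -0.16 to -0.41 over cDC1-like cells, where 10 members were then higher and 12 lower.

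In cDC1-like cells, members past 1.5-fold between libraries numbered 0, but 2 with each library clustered alone, 4 with cells thinned to 3000 UMIs, 1 without those abundant genes, 1 without the top cell of each gene and 2 at a minimum of 5 CPM. The GTPase median there, of 1 gene, was -0.18, but 0.19 with at least 1000 genes per cell, 0.45 without the abundant genes and 0.39 at 5 CPM.

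In cDC2-like cells the 9 became 4 with at most 5% mitochondrial UMIs and 1 at 50 CPM. The type I-like median of -0.03 became -0.45 with libraries clustered alone. The GTPase median of 0.94 became 1.55 with members allowed to shape clusters and 1.99 at 50 CPM, and reversed to -0.48 with libraries clustered alone, -0.28 at 5% mitochondrial UMIs, -0.42 in the Clec4a4+ cluster and -0.20 after thinning. Classing cells by marker means reversed Ifit1 (-0.29) and Ifit3 (-1.54). The 5% limit reversed Gbp2 (-0.30), Gbp3 (-0.21) and Gbp7 (-0.63), and the Clec4a4+ cluster alone gave -0.76, -1.46 and -0.80.

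In mature cells the count of 1 became 0 with doublets kept, at resolution 0.5 or 2.0, with members allowed, at 200 or 1000 genes, without the top cell and at 50 CPM. It became 3 with libraries clustered alone, 2 by marker means, 3 with the L-cDC mature cluster added and 2 at 5 CPM. Ifi27l2a was not among the 3 with libraries clustered alone. After thinning, and with unnamed clusters of highest mature score added, the count stayed at 1 but the member was not Ifi27l2a.

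Between classes, 5 members higher in cDC1-like than cDC2-like cells became 3 after thinning and 3 at 50 CPM, and 9 lower became 4 by marker means, 2 after thinning and 3 at 50 CPM. The 15 lower in mature than cDC2-like cells became 8 by marker means and 7 at 50 CPM, and the 10 lower than in cDC1-like cells became 16 at 5 CPM and 6 at 50 CPM. At 50 CPM the 11 higher and 3 lower in Pla2g7+ cells became 7 and 1. Slfn5, the 1 higher in Mgl2+ cells, was lost after thinning (0). Single ratios reversed for Ly6a in cDC1-like over cDC2-like cells of L-cDC (-0.44, libraries alone). For mature over cDC2-like cells they reversed for Isg15 (-0.0868 in L-cDC and -0.15 in M-cDC, members allowed), for Bst2 in L-cDC (-0.88 with libraries alone, -0.31 by marker means) and for Zbp1 in L-cDC (0.27, Clec4a4+ alone). No paired analysis was possible because each group had 1 library.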
